A study of Pimephales promelas with 27 samples.

Results

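A group of 60 array probes whose mean signal was lower at both doses of pure naphthenic acids than in their control, and not or barely lower in fresh oil sands process water, was followed across all 27 arrays of an exposure series in newly hatched fathead minnow. The 60 came from 15208 probes. A probe was eligible if its spot was well above background on all 9 arrays of the pure acids and their salt control, which held for 10478 probes. Its difference from pure salt had to be below 0 at 1.25 ppm, and its differences from fresh salt had to lie above −0.2 at 5 and 10 ppm with fresh 10 ppm replicate 1 left out. These limits left 2713 probes, of which the 60 with the lowest difference at pure 2.5 ppm were taken. The pure and fresh differences therefore chose the members and are given below as a description, and only the aged arrays are independent of the choice.

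Naphthenic acids are carboxylic acids of petroleum that pass into the water used to wash bitumen out of oil sand, and they are regarded as a main source of the toxicity of that water to fish. Their surfactant character and their narcotic effect on membranes are commonly discussed, and process water carries many other organic compounds and salts besides. The fathead minnow is a small North American fish widely used in toxicity testing, and an expression array reads the amount of each transcript in RNA of the whole larva, so that fewer cells of a type and less RNA per cell cannot be told apart.

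Embryos of the species were exposed up to hatching, and total RNA of the newly hatched larvae was labelled with Cy3 and hybridised to one-colour Agilent arrays. Pure naphthenic acids were given at 1.25 and 2.5 ppm beside a salt control of their own. Fresh process water was given at 5 and 10 ppm and aged process water at 10 and 20 ppm, each likewise beside its own salt control, with 3 arrays in each of the 9 groups. No strain is named in the labels, nor whether the arrays of a group came from separate tanks, spawns or pools of larvae, so p-values rest on the spread among arrays of a group, some of which may be technical. Levels are given on a log2 scale on which the 75th percentile of the processed signal on each array is 0, so most probes, and most members, have negative levels.

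Between 10930 and 14981 probes per array were well above background. On 5 arrays the dimmest 10% of probes lay 0.914 to 4.30 log2 units above the mean of the other 22 arrays, against −0.515 to 0.340 among those 22. They were fresh 10 ppm replicate 1, aged salt replicates 7 and 9, and aged 20 ppm replicates 4 and 6, and none belonged to the pure groups. Results on aged and fresh 10 ppm arrays are therefore given with and without them. None of the probe names matched a gene of the reference table, so no member has a gene name here, and no gene list or tissue marker could be applied. By a set rule 4 members are followed by identifier, beside others singled out after their values were seen.

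The members were mostly dim probes. Their mean level over the 27 arrays had a median of −3.002, from −4.85 to 3.48, against a median of −0.95 for the detected probes, and with the detected probes divided by level into 4 bins of equal size, 34 of the 60 lay in the dimmest bin, 14 in the second, 7 in the third and 5 in the brightest. Of the 60, 58 were well above background on all 27 arrays, as were 10108 of the 10478 detected probes. The selection already required this on the 9 pure arrays. Over all arrays 6 of the 1620 member spots were marked as not uniform (0.37%, against 0.168% for the detected probes), and none of the 540 on the pure arrays.

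On the pure arrays, which chose the members, the levels of the members stepped down from salt to the lower and the higher dose. Their median was −2.46, −2.40 and −2.75 on the 3 pure salt arrays, −2.96, −3.10 and −2.86 at 1.25 ppm, and −3.72, −3.49 and −3.29 at 2.5 ppm. The 3 groups did not overlap in this median, while the median of all detected probes stayed between −1.01 and −0.61 on all 27 arrays.

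**Figure D1:**
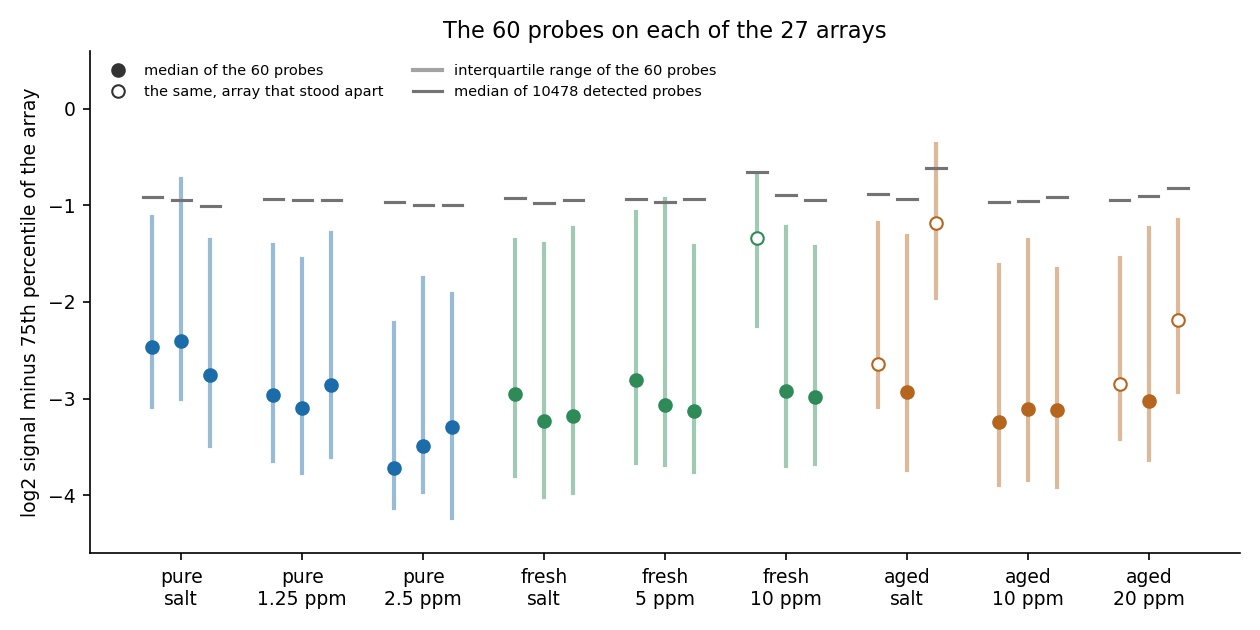
Level of the 60 probes on each array (y axis, log2 signal relative to the array's 75th percentile) by group (x axis). Points are the median and bars the interquartile range of the 60 probes, open points are the 5 arrays that stood apart, and short grey lines are the median of the 10478 detected probes; the 3 arrays of pure 2.5 ppm, between −3.72 and −3.29, are the lowest of all.

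At pure 2.5 ppm the median member was 0.553 times its level in pure salt, a log2 difference of −0.85, where the median of all 14738 tested probes was −0.12. The members ran from −1.65 to −0.77. The last 2 probes taken were at −0.774 and −0.773, and the first 2 left out at −0.772 and −0.763, so the group has no gap at its edge. At 1.25 ppm the members ran from −1.24 to −0.02 with a median of −0.44, against −0.03 for all tested probes. The mean at 2.5 ppm was below that at 1.25 ppm in 58 of the 60. The selection favours this order, since it took the lowest probes at 2.5 ppm and asked only for a difference below 0 at 1.25 ppm.

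All 3 arrays of pure 2.5 ppm lay below all 3 of pure salt in 42 of the 60 members, and in 16.4% of all tested probes. At 1.25 ppm this held for 11 of the 60, and for 8.84% of all tested probes. In 2 members the 3 groups were in order without any overlap, and the share of all tested probes in such order was not counted. Fitted across all probes with limma at a Benjamini-Hochberg adjusted p below 0.05, 2 members passed as lower at 2.5 ppm (0.217% of all tested probes) and 0 at 1.25 ppm (0% of all tested probes). Nothing is read from these counts, since the same arrays chose the members. At an unadjusted p below 0.05, 29 members passed at 2.5 ppm, beside 11.8% of all tested probes in either direction, and 3 at 1.25 ppm, beside 5.33%.

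The size of these differences, and with normexp the sign of their median at pure 2.5 ppm, changed with how the signal was processed. With normexp background correction, run on the median signal, the members' median at pure 2.5 ppm turned to 0.18. The median of all tested probes moved to 0.49, so the members' median stayed below that of all tested probes but not below 0. The signal measure and the background step changed together there, and their parts were not tested. Under quantile normalization the members' median was −0.69 and in the authors' value table −0.68. In either 0 members passed, beside 1.0% and 1.25% of all tested probes. Of the 60 members, 37 would be chosen again by the same limits on quantile normalized values, and likewise 37 in the authors' value table.

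Single salt arrays differed in how far they lay above the exposed ones, on the same values that chose the members. Without the highest pure salt array of each member the differences at 2.5 ppm had a median of −0.70 and ran up to −0.23, and in 2 members the highest salt array lay at least 1 log2 unit above the next. Pure salt replicate 8 was the highest of the 3 salt arrays in 28 members (46.7%), replicate 7 in 20 and replicate 9 in 12, whereas replicate 8 was the highest in 25.2% of the detected probes. Slides were inferred from the naming of the scanner output, since the sample titles do not give them. On slide 3, the slide that holds both pure 2.5 ppm and pure salt, 1 exposed array against 2 salt arrays gave a median of −0.96. There 58 of the 60 were below 0, beside 51.2% of all tested probes. On slide 2, 1 array of 1.25 ppm against 1 of salt gave −0.48, with 41 of the 60 below 0, beside 59.7%.

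Probe UF_Ppr_AF_113603 had the lowest difference at pure 2.5 ppm. It measured 0.21, 0.16 and −0.56 at pure 2.5 ppm, against 0.87, 2.16 and 1.73 in pure salt, a difference of −1.65 ± 0.56 (SE, n = 3). The exposed arrays were all below the salt arrays, while 1.25 ppm, at −0.46, 2.27 and 1.39, spanned both. UF_Ppr_AF_113603 is one of the 3 members whose pure salt mean lay below fresh salt, by −1.07: its fresh arrays measured 2.29, 2.20 and 2.91 at 5 ppm, against 2.58, 3.09 and 2.30 in fresh salt. In aged water it measured 2.57, 1.32 and 1.54 at 10 ppm and 1.81, 1.54 and 1.65 at 20 ppm, against 2.36, 0.81 and 2.24 in aged salt. The mean of both aged doses differed from aged salt by −0.07 ± 0.48 (SE, n = 3 per group, limma adjusted p = 0.926). Without the 5 arrays the difference was 0.86 ± 0.77 (SE).

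The second lowest, UF_Ppr_AF_108550, measured −1.99, −2.13 and −1.95 at pure 2.5 ppm, against −0.35, 0.05 and −1.39 in pure salt. The difference was −1.46 ± 0.39 (SE, n = 3), and the groups did not overlap. Its 2.5 ppm level, −2.02 ± 0.10 (SD, n = 3), was nearer to fresh salt, at −1.58 ± 0.61 (SD, n = 3), than pure salt was, at −0.56 ± 0.74 (SD, n = 3). In aged water UF_Ppr_AF_108550 was at −0.86 ± 0.37 at 10 ppm and −0.93 ± 0.31 at 20 ppm, against −0.62 ± 0.30 in aged salt (SD, n = 3 each). The mean difference of −0.27 ± 0.33 (SE) did not pass (limma adjusted p = 0.569), and without the 5 arrays it was −0.10.

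Among the members, UF_Ppr_AF_117513 had the lowest mean aged difference, −1.35 ± 0.74 (SE, n = 3 per group, limma adjusted p = 0.310). It measured −4.22, −4.55 and −4.06 at aged 10 ppm and −3.25, −4.30 and −2.40 at 20 ppm, against −2.79, −4.16 and −0.40 in aged salt. The 4 aged salt and aged 20 ppm values above −4 are those of the arrays that stood apart, and without these arrays the difference was −0.13 ± 0.73 (SE; limma adjusted p = 0.997). Its pure salt values were uneven as well: at pure 2.5 ppm it measured −3.98, −4.63 and −4.64, against −4.08, −1.39 and −4.21 in pure salt, and without pure salt replicate 8 the difference of −1.19 shrank to −0.27.

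UF_Ppr_AF_109672 had the highest mean aged difference, 0.25 ± 0.28 (SE, n = 3 per group, limma adjusted p = 0.530). Without the 5 arrays that difference was 0.30. The probe measured −3.71, −4.50 and −4.41 at pure 2.5 ppm, against −3.08, −3.68 and −3.19 in pure salt, without overlap. Those 2.5 ppm values lay within the range of UF_Ppr_AF_109672 in fresh salt, −3.87, −4.41 and −4.68, apart from the first, which was higher. At fresh 5 ppm the probe was at −3.46, −3.45 and −3.47, above every fresh salt array.

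The 2 members that passed at pure 2.5 ppm were singled out after their values were seen. UF_Ppr_AF_106007 measured −3.77, −3.61 and −3.84 at pure 2.5 ppm, against −3.10, −2.88 and −2.55 in pure salt, a difference of −0.90 ± 0.20 (SE, n = 3). These were its 3 lowest values in the series, the next being −3.45 on a fresh 5 ppm array, and its 1.25 ppm values of −2.91, −2.84 and −2.84 lay within the salt range. UF_Ppr_AF_104382 measured −4.62, −3.88 and −3.97 at pure 2.5 ppm, against −2.97, −3.08 and −3.38 in pure salt, a difference of −1.02 ± 0.25 (SE, n = 3), with 1.25 ppm between them at −3.78, −3.42 and −3.67. The mean of the aged doses differed from aged salt by −0.18 ± 0.17 (SE) for UF_Ppr_AF_106007 (limma adjusted p = 0.472) and by −0.42 ± 0.21 (SE) for UF_Ppr_AF_104382 (limma adjusted p = 0.302). Without the 5 arrays these differences were −0.25 and −0.09. In either direction 1.62% of all tested probes passed at 2.5 ppm. The count of 2 members became 0 in fits that dropped pure salt replicate 8 (0.943% of all tested probes), replicate 4 of pure 2.5 ppm (0.841%) or replicate 6 (1.41%). It became 1 when pure salt replicate 7 was dropped (1.23%), 3 when pure salt replicate 9 was (1.12%), and 5 when replicate 5 of pure 2.5 ppm was (1.99%). With the 5 arrays left out, which enter this comparison only through the shared spread, 15 members passed as lower, beside 1.18% of all tested probes.

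**Figure D2:**
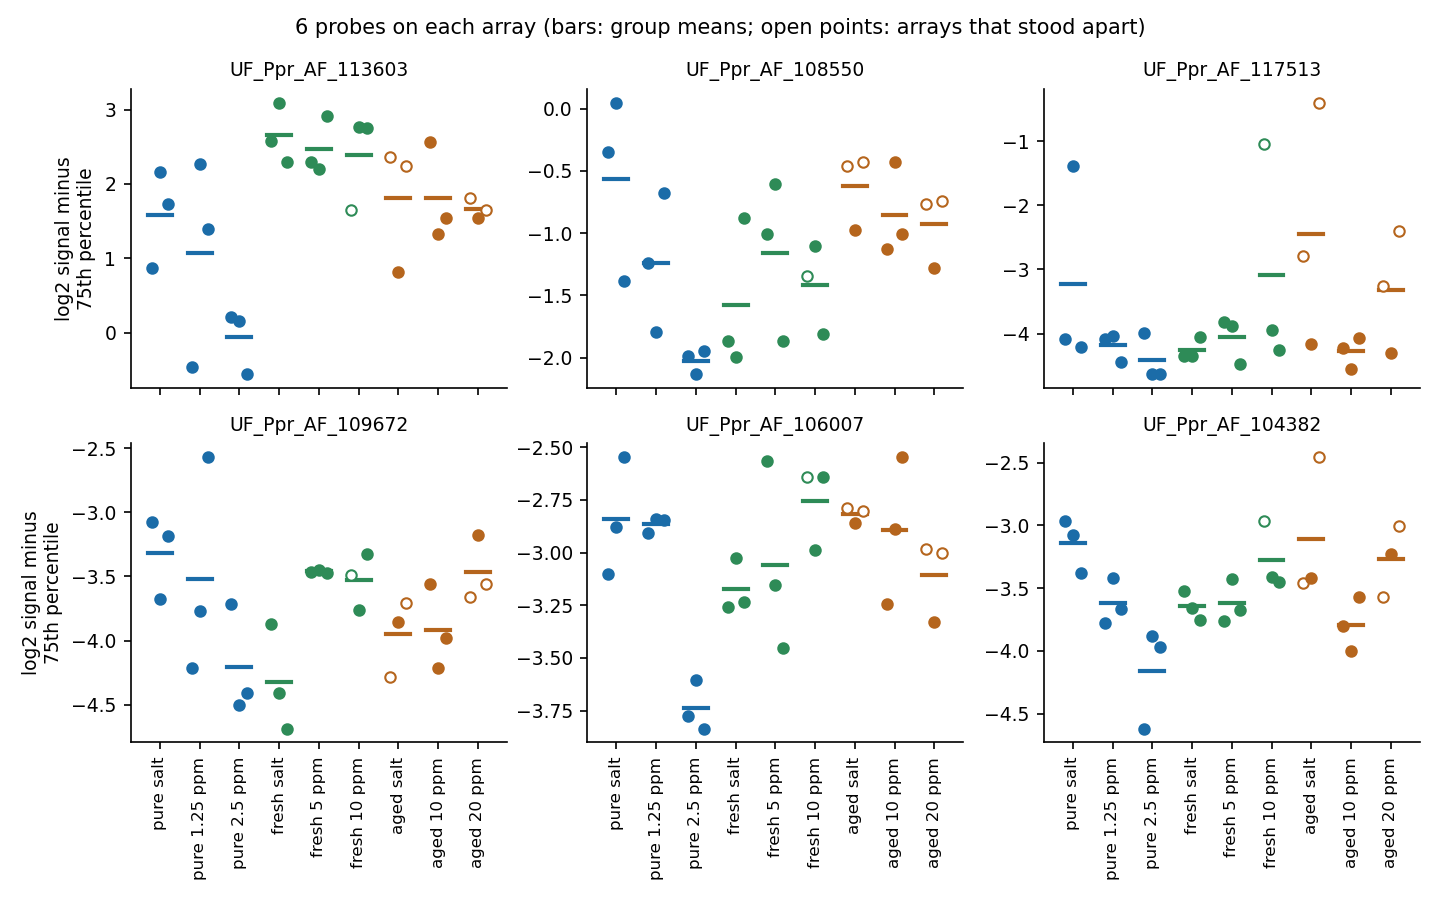
Level of 6 of the probes (y axis, log2 signal relative to the array's 75th percentile) in each of the 9 groups (x axis). Points are single arrays, open where the array stood apart, and bars are group means; for UF_Ppr_AF_106007 the 3 points of pure 2.5 ppm, −3.84 to −3.61, are the lowest of its 27.

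In fresh process water the limits kept every member above −0.2, with fresh 10 ppm replicate 1 left out. Below 0 were 14 of the 60 at 5 ppm (53.4% of all tested probes) and 23 at 10 ppm (47.2%). With replicate 1 kept, 14 were below 0 at 10 ppm (30.3%), the lowest at −0.74. The array medians of the members were −2.81, −3.07 and −3.13 at 5 ppm and −1.34, −2.92 and −2.99 at 10 ppm, against −2.95, −3.24 and −3.18 in fresh salt. The first value at 10 ppm is that of replicate 1, which stood apart and which the selection left out. The median difference was 0.19 at 5 ppm (all tested probes −0.03) and 0.56 at 10 ppm (all tested probes 0.27). Without replicate 1 it was 0.10 at 10 ppm, against 0.03 for all tested probes. With all arrays kept, the median at 10 ppm was −0.08 under quantile normalization and −0.08 in the authors' value table, with all tested probes at −0.04 in both. No member passed in either direction, beside 0.0746% of all tested probes at 5 ppm and 0.332% at 10 ppm in limma, and at an unadjusted p below 0.05 there were 3 members at 5 ppm, beside 7.84% of all tested probes in either direction, and 6 at 10 ppm, beside 15.5%. All of these members were higher. Near the limit of −0.2, 8 members had their lower fresh difference between −0.2 and −0.15, and 7 probes as low in pure acids were kept out between −0.25 and −0.2.

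The 2 salt controls behind these differences were not at the same level for the members. Pure salt was above fresh salt in 57 of the 60, by a median of 0.63, whereas over the detected probes the median was 0.04 and 56.6% were above 0. Set against fresh salt in place of their own control, the members were 0.20 higher at pure 1.25 ppm (detected probes 0.02). At pure 2.5 ppm they were at −0.33 (detected probes −0.03), with 47 of the 60 below 0 and 13 above. Of the detected probes 46.2% were above 0 there. Pure salt was also above aged salt replicate 8, the aged control array that did not stand apart, in 50 members, by a median of 0.49. Over the detected probes that median was 0.05, with 56.6% above 0. Pure 2.5 ppm was below the same array in 50 members and above it in 10, by a median of −0.44. The detected probes were at −0.02, with 46.6% above 0. The pure and fresh salt arrays are part of the differences that chose the members, so these levels are a description of the choice.

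**Figure D3:**
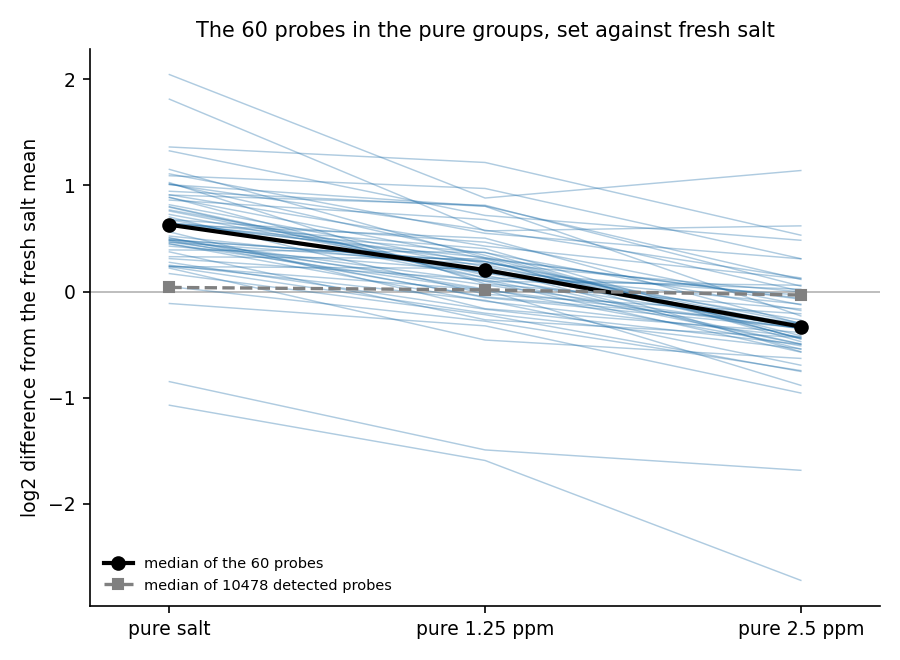
Difference of each of the 60 probes from the fresh salt mean (y axis, log2) in the 3 pure groups (x axis). Thin lines are probes, the black line their median and the dashed grey line the median of the detected probes; the member median is 0.63 in pure salt, 0.20 at 1.25 ppm and −0.33 at 2.5 ppm.

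Of the 287 detected probes at or below the last member at pure 2.5 ppm, 269 were also below 0 at 1.25 ppm, and 209 of these were kept out by the fresh limits. The members were thus 60 of the 269 probes as low at pure 2.5 ppm and below 0 at 1.25 ppm. The 209 had a similar median at pure 2.5 ppm, −0.89, but stood less high in pure salt, with a median of 0.28 above fresh salt and 177 of the 209 above 0, and lower at pure 2.5 ppm against fresh salt, at −0.62. The difference between the groups was not tested, since the fresh salt arrays separated them.

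The aged arrays were not used by the selection and ask whether the members also moved in aged process water. The array medians of the members were −3.24, −3.11 and −3.12 at aged 10 ppm and −2.85, −3.03 and −2.19 at 20 ppm, against −2.65, −2.93 and −1.18 in aged salt. The arrays that stood apart were the 2 highest at 20 ppm and the 2 highest in salt. With all arrays the median difference was −0.66 at 10 ppm (all tested probes −0.31) and −0.30 at 20 ppm (all tested probes −0.15). At 10 ppm 47 of the 60 were below 0, beside 65.9% of all tested probes, and at 20 ppm 52 of the 60, beside 61.6%. Other scalings of the same arrays gave median differences nearer to 0. Under quantile normalization the median was −0.0227 at 10 ppm (all tested probes 0.0773) and −0.13 at 20 ppm (all tested probes 0.03), and in the authors' value table it was 0.00106 at 10 ppm (all tested probes 0.0391) and −0.066 at 20 ppm (all tested probes −0.0143). With normexp it was −0.50 at 10 ppm (all tested probes −0.29) and −0.02 at 20 ppm (all tested probes 0.14).

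No member passed in aged water. In limma 0 members were called at 10 ppm, beside 0.129% of all tested probes, 0 at 20 ppm, beside 0.278%, and 0 in the mean of both doses, beside 0.434%. At an unadjusted p below 0.05, 17 members were lower at 10 ppm, where 24.4% of all tested probes passed in either direction, 2 at 20 ppm, beside 7.67%, and 6 in the mean of both doses, beside 16.9%. All 3 arrays of aged 10 ppm lay below all 3 of aged salt in 15 of the 60, beside 13.1% of all tested probes, and at 20 ppm in 4 of the 60, beside 2.86%. From 10 to 20 ppm the members' median difference was 0.38, and all tested probes were at 0.18; 0 members passed, beside 0% of all tested probes, and 5 had an unadjusted p below 0.05, beside 2.38%. The step was −0.0648 under quantile normalization and −0.10 in the authors' value table.

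**Figure D4:**
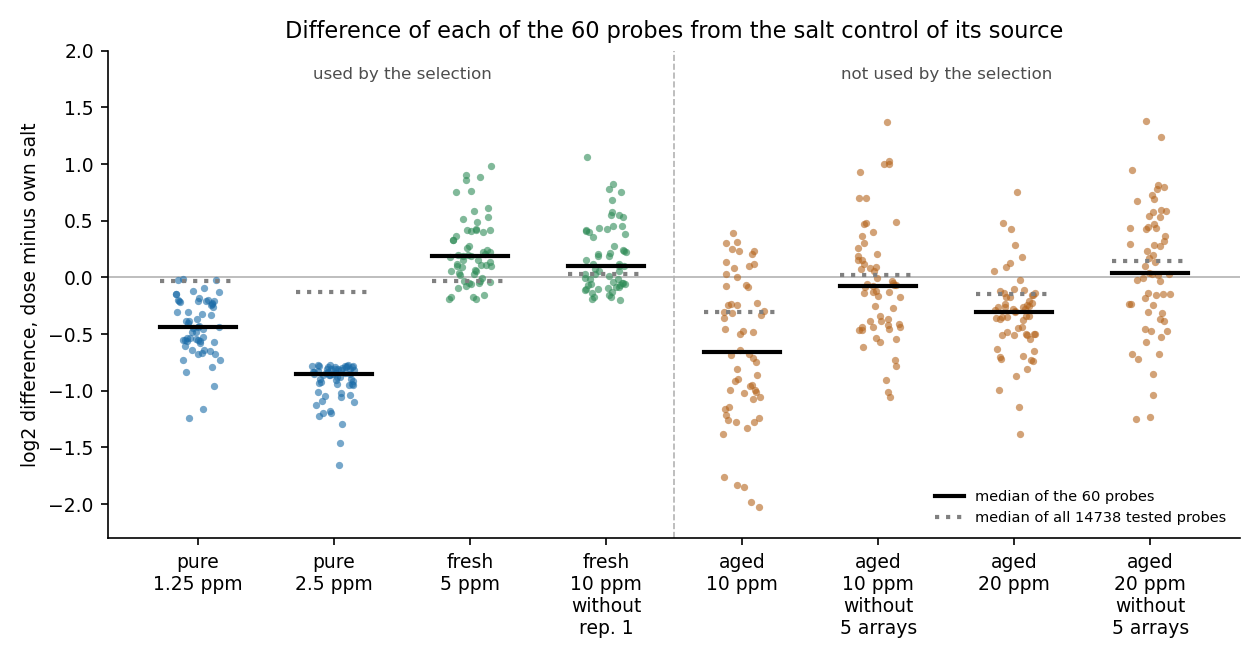
Difference of each of the 60 probes from the salt control of its source (y axis, log2) at each dose (x axis), with fresh 10 ppm without replicate 1 and each aged dose with and without the 5 arrays. Points are probes, black lines their median and dotted lines the median of all tested probes; at aged 10 ppm the member median is −0.66 with all arrays and −0.08 without the 5.

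The median aged differences were close to 0 without the arrays that stood apart. The median was then −0.08 at 10 ppm and 0.04 at 20 ppm, with all tested probes at 0.02 and 0.14. Single members ran from −1.05 to 1.37 at 10 ppm and from −1.25 to 1.38 at 20 ppm. At 10 ppm 37 of the 60 were below 0, beside 46.7% of all tested probes, and at 20 ppm 27 of the 60, beside 35.8%. Only 1 aged salt and 1 aged 20 ppm array remain in that fit, and they are assumed to vary like the other groups. It called 0 members at either dose, beside 0.149% of all tested probes at 10 ppm and 0.0611% at 20 ppm in either direction. At an unadjusted p below 0.05 there were 4 members at 10 ppm, beside 5.21%, and 4 at 20 ppm, beside 6.97%. The opposite choice, leaving out the one aged salt array that did not stand apart (replicate 8), called 24 members as lower at 10 ppm, beside 30.6% of all tested probes in either direction, and 10 in the mean of both doses, beside 16.1%.

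Within slides, each aged comparison had 1 exposed and 1 salt array. The aged 10 ppm median was −0.55 on slide 2 (all tested probes −0.21) and −1.35 on slide 4 (all tested probes −0.71). Both of those salt arrays stood apart. At 20 ppm the median was 0.10 on slide 3 (all tested probes 0.10), where the exposed array stood apart. On slide 4 it was −1.06 (all tested probes −0.55), against the same salt array as at 10 ppm.

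The differences at aged 10 ppm followed the brightness of the members as they did that of other probes. At aged 10 ppm the median was −0.99 in the 34 members of the dimmest bin, −0.39 in the second, −0.07 in the third and 0.25 in the 5 of the brightest, against −0.80, −0.21, 0.08 and 0.22 in the detected probes of those bins. Without the 5 arrays the same medians were −0.12, −0.16, 0.07 and 0.40 in the members and −0.03, −0.04, −0.0027 and 0.06 in the detected probes. With all arrays, the members' medians at aged 20 ppm were −0.50, −0.26, −0.24 and −0.22 from the dimmest bin to the brightest. The detected probes were at −0.37, −0.10, 0.09 and 0.20, so the members stayed below 0 in the brighter bins where the detected probes did not. At pure 2.5 ppm, where the selection took the lowest probes, the members' median ran from −0.94 to −0.84 over the bins. The detected probes were at −0.22, −0.11, −0.03 and 0.05 there, from the dimmest bin to the brightest.

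**Figure D5:**
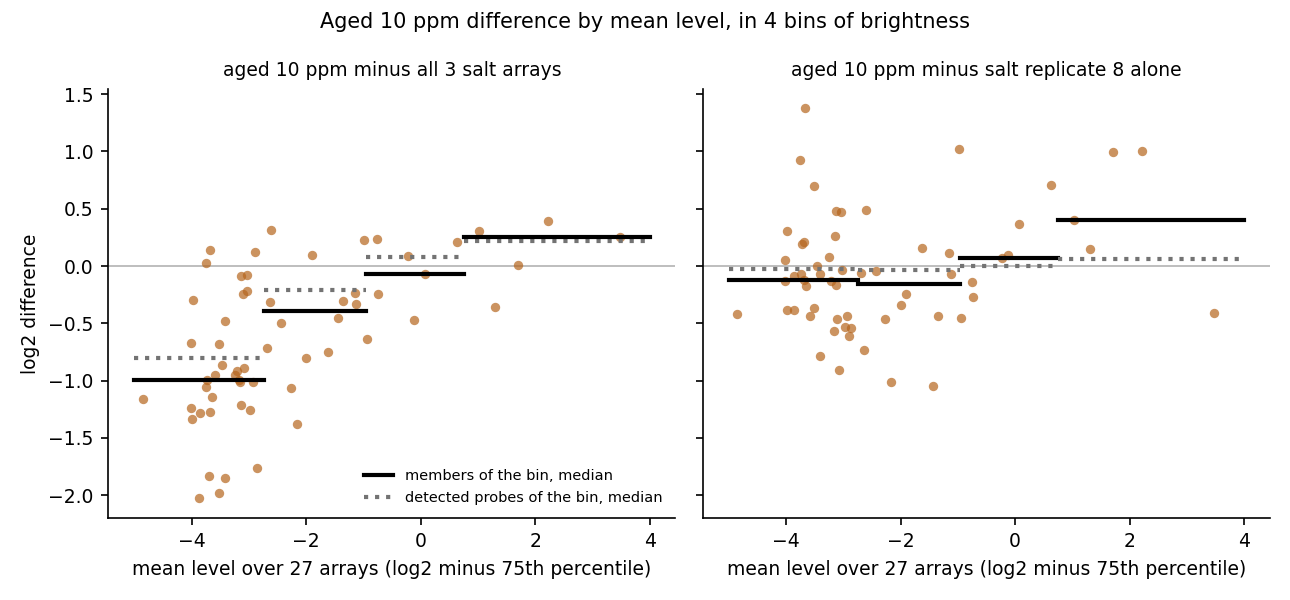
Difference at aged 10 ppm (y axis, log2) of each of the 60 probes by its mean level over the 27 arrays (x axis), against all 3 aged salt arrays on the left and against replicate 8 alone on the right. Black lines are the median of the members and dotted lines that of the detected probes in each bin of brightness, drawn up to a level of 4; the members of the dimmest bin are at −0.99 on the left and −0.12 on the right.

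The 209 probes that were as low in pure acids but were kept out by the fresh limits had a median below 0 in aged water also without the 5 arrays. Their median was −0.59 at 10 ppm and −0.43 at 20 ppm with all arrays, and −0.38 and −0.29 without the 5 arrays. The members were at −0.08 and 0.04 in that setting, and all tested probes at 0.02 and 0.14. Both doses are then set against 1 aged salt array, replicate 8, and 20 ppm rests on 1 exposed array. The difference between the 209 and the members was not tested.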

How the data were processed

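Per the file headers, the scanner output was made with Agilent Feature Extraction 10.7.1.1 and holds, for each spot, a deposited processed signal and median and local background signals, all as intensity on a linear scale, and flags, another kind of value, that are 1 where a spot is not uniform, saturated or well above background. How the processed signal was background-corrected is not given in the sources used here. The value table holds the authors' log2 values. Of 15744 spots per array, 536 control spots were left out, and no probe spot was saturated. The processed signal had a 75th percentile between 582 and 2044 on the arrays, whose number, 3 per group, limits the precision.

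The processed signal was put on the log2 scale, each array's 75th percentile was subtracted, and the values were fitted in limma 3.58.1 (R 4.3.3), with a mean per group over 27 arrays and 18 residual degrees of freedom, for the 14738 probes well above background on at least 3 arrays. All 60 members were among these. P-values were Benjamini-Hochberg adjusted over all of them, with a threshold of 0.05, and the fit was tested on simulated data. Each SE is that of its limma fit, on a spread pooled over all groups in the fit. Medians and counts were made in Python 3.11.15. The members, gene lists and the 5 arrays that stood apart were chosen with earlier results of these data known. The 5 arrays are those whose scanner file and value table column had a Spearman correlation of 0.871 to 0.982, against 0.9996 to 0.9997 for the other 22. Probe names matched 0 of 64593 reference genes, so probes were named by identifier: the 2 lowest at pure 2.5 ppm and the lowest and highest in the mean of both aged doses. The 2 members that passed at pure 2.5 ppm and the pair sharing the first part of a contig name were added after their values were seen.

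Alternatives were quantile normalization, normexp (offset 50, on the median signal, since no mean signal was used here), other filters on dim probes, the value table, fits without the 5 arrays or with the groups of 1 source, slide and replicate number as blocks, a trended and robust spread, and each array left out. Fits that dropped the 5 arrays and also blocked on slide, or used quantile normalization, were chosen after seeing the data. Compared groups share no replicate number, so the numbers give no pairing of a dose with its salt control. Across sources the deviations of 11 of 27 same-numbered pairs correlated above 0.1. Their median was 0.07, against −0.003 for pairs with different numbers. Whether arrays were paired in another way within a source was not tested.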

Additional observations from a re-analysis of the deposited data

How the results depend on the processing

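The members' median at pure 2.5 ppm kept its sign under the alternatives except normexp, where it was 0.18. The count of members passing there, 2 as reported beside 1.62% of all tested probes in either direction, changed with the fit. It was 0 with quantile normalization (1.0%), normexp (0.461%) or the authors' value table (1.25%), and 1 with a trended and robust spread (2.02%). With probes well above background on all 27 arrays it was 4 (3.29% of those probes). Without the 5 arrays it was 15 (3.22%). Without them it was 8 with slide as a block (4.8%) and 6 with quantile normalization (3.01%). Slide as a fixed block moved the median to −1.10 at pure 2.5 ppm and −0.64 at 1.25 ppm. Normexp moved it to −0.22 at pure 1.25 ppm (all tested probes 0.098). At fresh 5 ppm normexp turned its sign, from 0.19 to −0.0469 (all tested probes −0.078). With all arrays kept, quantile normalization and the authors' value table moved the median to −0.08 and −0.08 at fresh 10 ppm, turning its sign. At aged 10 ppm they moved it to −0.0227 and 0.00106. No member passed in either, beside 0.394% and 0.326% of all tested probes at fresh 10 ppm and 0.0746% and 0.0814% at aged 10 ppm. The step from aged 10 to 20 ppm was −0.0648 with quantile normalization, −0.10 in the authors' value table, 0.0155 without the 5 arrays and −0.10 without them and with quantile normalization. The cause was not tested. Leaving out 1 array at a time gave 0 to 5 members passing at pure 2.5 ppm and 0 to 24 at aged 10 ppm. In the mean of both aged doses it gave 0 to 10. The highest counts came beside 1.99%, 30.6% and 16.1% of all tested probes in either direction, the last 2 without aged salt replicate 8.

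Of the single probes, UF_Ppr_AF_113603 ran from −1.12 to 0.24 at pure 1.25 ppm with 1 array left out, and its mean aged difference to 0.86, 1.36 and 0.83 without the 5 arrays (alone, with slide as a block, with quantile normalization) and to between −0.56 and 0.21 with 1 array left out. UF_Ppr_AF_108550 turned to 0.42 in the aged mean in the authors' value table. UF_Ppr_AF_117513 turned to 0.14 at pure 2.5 ppm with normexp and to 0.32 in the aged mean without the 5 arrays and with slide as a block. UF_Ppr_AF_109672 turned to 0.0845 with normexp, 0.0405 without the 5 arrays and with slide as a block, and between −0.68 and 0.14 with 1 array left out, all at pure 1.25 ppm, and to 0.33 at pure 2.5 ppm with normexp.

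With the replicate number as a random replicate block (correlation −0.00886) the members passing stayed at 2 at pure 2.5 ppm, beside 1.58% of all tested probes. They stayed at 0 elsewhere, with the aged 10 ppm median at −0.66. A fixed replicate block could not be fitted. Of the 60, 34 lie in the dimmest of the 4 bins, and whether dim probes were less precise was not tested.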

Other observations

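The members' names in the files give little to group them by. Of the 60, 47 carry contig names (78.3%, against 84.6% of the detected probes) and 13 carry sequence numbers, and 17 are marked as the reverse complement strand (28.3%, against 21.4%). The contig names have 46 first parts, of which 1 is held by a pair of members, UF_Ppr_AF_113894 and UF_Ppr_AF_113058, named here after their values were seen. The pair measured 0.57 ± 0.35 and 1.92 ± 0.34 at pure 2.5 ppm, against 1.74 ± 0.49 and 2.86 ± 0.40 in pure salt (SD, n = 3 each). Another 26 probes that are not members share a first part with one, and of the 22 detected on all pure arrays 17 were below 0 at pure 2.5 ppm (median −0.24, from −0.64 to 1.02), where 58.4% of the detected probes were below 0. These probes were also lower at fresh 10 ppm without replicate 1, with a median of −0.25. Their pure salt was above fresh salt by a median of 0.06.

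On the array, 38 of the 60 members lay in columns 1 to 41 of 82 (63.3%, against 50.1% of the detected probes and 54.3% of the probes as low at both pure doses), and 25 in rows 1 to 96 of 192 (41.7%, against 49.5%). The median of the detected probes at pure 2.5 ppm was −0.06 in columns 1 to 41 and −0.07 in the others.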
